A study of Mus musculus with 8 samples.

Results

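Transcripts of 10 genes of fatty acid elongation and desaturation were described in mouse liver. They were taken as a named set, and all 10 were found by symbol among the 55416 listed genes. They are the elongases *Elovl1*, *Elovl2* and *Elovl5*, the desaturases *Fads1*, *Fads2*, *Fads3*, *Fads6* and *Scd2*, and *Hacd3* and *Tecr*, which serve later steps of the elongation cycle. The study measured liver RNA by sequencing in 8 libraries. In 4 of them, the floxed controls (genotype Alb-cre-), no Cre recombinase was present. In the other 4, the hepatocyte knockouts (genotype Alb-cre+), Cre under the albumin promoter removed *Smpd3*, which encodes neutral sphingomyelinase 2, in hepatocytes. The design names a Cre-loxP system and the controls carry the label FLOX. The albumin promoter is active in hepatocytes, so other liver cells should keep the gene. All 8 came from mice given the HFMCD diet for 9 weeks to bring about steatohepatitis, so no result here separates the diet from another diet. Cre and the loss of *Smpd3* always occur together and cannot be told apart. The labels give no age or sex and do not say that each library is a separate animal, so each p-value reflects only how far these samples spread, which may be technical.

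Long-chain fatty acids are lengthened in the endoplasmic reticulum in a cycle of 4 reactions. An elongase (ELOVL) condenses the acyl chain with malonyl-CoA and sets which chains enter, a ketoreductase (HSD17B12) and a dehydratase (HACD) follow, and the enoyl reductase TECR completes the cycle. Desaturases insert double bonds with electrons passed on by cytochrome b5. In liver, FADS2, ELOVL5, FADS1 and ELOVL2 act in turn to make arachidonic and docosahexaenoic acid from the essential fatty acids of the diet, and the liver supplies these to other organs. ELOVL1 makes the saturated and monounsaturated very long chains that ceramides and sphingomyelin carry, the lipid class on which SMPD3 acts.

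Levels are given as TPM, a length-corrected share of each library's transcripts, so that genes can be compared with one another. A log2 fold change is the knockout mean less the control mean of log2(TPM + 1). *Smpd3* itself measured 8.69, 10.7, 12.5 and 6.38 TPM in the floxed livers and 1.17, 3.03, 1.27 and 2.06 TPM in the knockout livers, here and below in the order of the replicate numbers 1 to 4. The groups did not overlap, and the log2 fold change was -1.89 ± 0.24 (SE; adjusted p = 0.030 in limma). That adjusted p lay between 0.036 and 0.087 when 1 library was left out, and the 5 libraries whose loss took it above 0.05 were floxed controls 1 and 2 and knockouts 1, 3 and 4. Without the filter on low values it was 0.167. Of 12710 genes tested, those at 1 TPM or more in at least 4 libraries, 6 were higher and 7 lower in the knockout at an adjusted p of 0.05. Hepatocyte markers summed to between 62595 and 82103 TPM per library, and 5 adipocyte markers to between 0 and 0.58 TPM. Of these 5, *Plin1* and *Lep* were listed at 0 in all 8 libraries. Floxed control 4 stood apart: 12115 genes reached 1 TPM there, while the other libraries had 12474 to 12890 such genes, and it had the lowest sums of endothelial, Kupffer cell, macrophage, stellate, lymphocyte and neutrophil markers. Sequencing depth is unknown from TPM, so no counting interval is given.

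The levels of the 10 genes formed 5 tiers whose ranges in the controls did not overlap, and all 10 passed the filter on low values. *Fads2* was the most abundant, with a mean of 340.2 TPM in the controls, above 96.7% of the tested genes by its mean over all libraries. *Tecr*, *Elovl5* and *Fads1* came next, at 167, 162 and 157 TPM in the controls, and their ranges overlapped. *Elovl2* (101 TPM), *Hacd3* (82.3 TPM) and *Elovl1* (71.5 TPM) followed, with overlapping neighbours, then *Fads6* (22.5 TPM), which overlapped neither neighbour. *Fads3* (4.15 TPM) and *Scd2* (3.87 TPM) were the lowest and overlapped one another. In the knockouts the order of means was the same except that *Elovl1* (73.9 TPM) stood above *Hacd3* (64.9 TPM), with ranges that overlapped. There the ranges of *Elovl2* and *Elovl1*, now neighbours in the order, did not overlap.

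**Figure D1:**
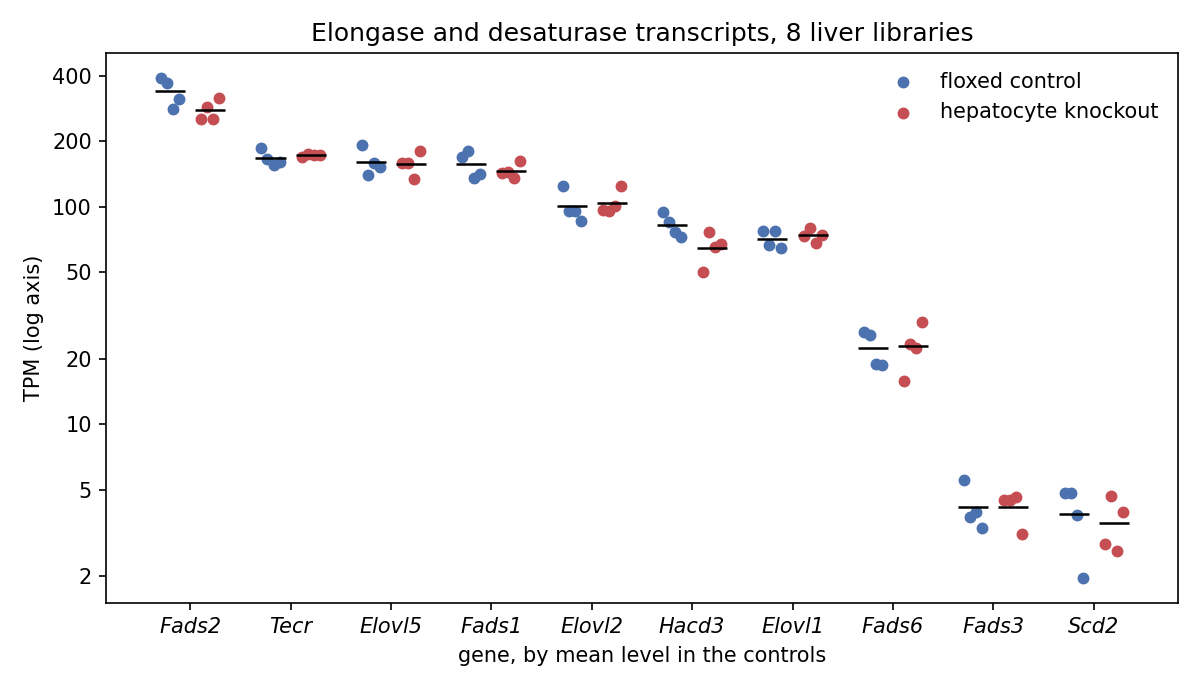
TPM on a log axis (vertical) for the 10 genes (horizontal, by mean level in the controls). Points are single libraries, 4 floxed controls in blue and 4 knockouts in red, and lines are group means. The points of the 2 groups overlap for every gene, and *Fads2* lies highest while *Fads3* and *Scd2* lie below 6 TPM.

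In limma, 0 of the 10 genes were called at the adjusted threshold of 0.05, where 0.102% of all tested genes were called, 0.0472% as higher and 0.0551% as lower in the knockout. At an unadjusted p under 0.05, 2 of the 10 were counted, *Hacd3* and *Fads2*, both with lower values in the knockout, against 8.02% of all tested genes in either direction and 2.45% with lower values. The groups were free of overlap in 0 of the 10, against 4.74% of all tested genes. Values were higher in the knockout for 5 genes and lower for 5, against 8211 higher and 4499 lower among all 12710 tested genes. Only *Fads1*, *Fads2* and *Hacd3* of the 10 kept their sign under every alternative run. The median log2 fold change of the 10 was -0.01, beside a median of 0.05 over all tested genes. Since the genes were chosen as a set with earlier results of these data known, and since 10 genes are few, these shares are a description.

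**Figure D2:**
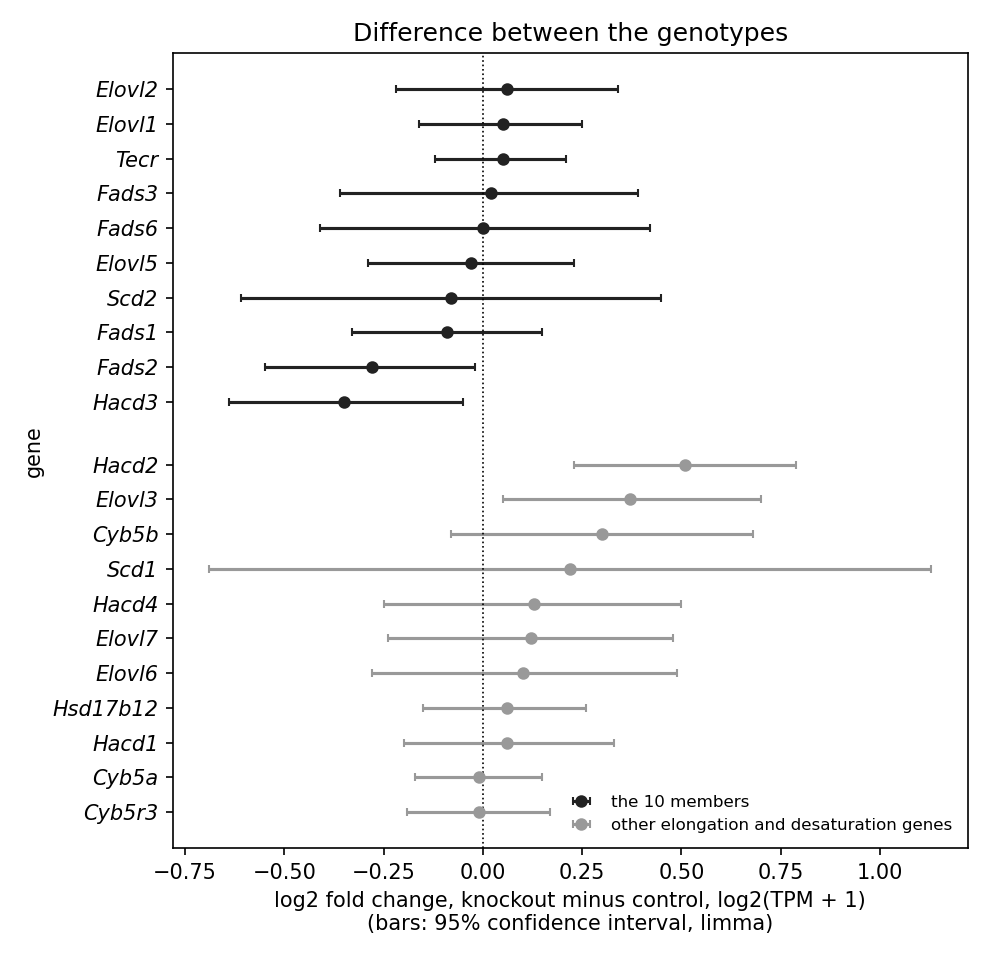
Log2 fold change from control to knockout in TPM + 1 (horizontal) for the 10 genes in black and the 11 tested of 14 other elongation and desaturation genes in grey. Bars are 95% confidence intervals from limma. The intervals of *Fads2* and *Hacd3* lie below 0, those of *Hacd2* and *Elovl3* above 0, and none of the 21 genes passed after adjustment over all genes.

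Among the desaturases of the polyunsaturated route, *Fads2* encodes the enzyme that starts the conversion of linoleic and alpha-linolenic acid. Its levels were 392, 373, 282 and 314 TPM in the floxed livers and 254, 288, 253 and 317 TPM in the knockout livers. Floxed controls 1 and 2 were the highest libraries and knockouts 1 and 3 the lowest, and the groups overlapped, with knockout 4 above floxed controls 3 and 4 and knockout 2 above floxed control 3. The control mean was 340.2 ± 51.1 TPM and the knockout mean 278 ± 30.8 TPM (SD, n = 4 each), a ratio of 81.7%. The log2 fold change was -0.28 ± 0.12 (SE; 95% confidence interval -0.55 to -0.02; unadjusted p = 0.0359, adjusted p = 0.581 in limma). Exact permutation over the libraries, 2-sided, gave p = 0.143, where 70 assignments of 4 against 4 allow no p below 0.0286. The unadjusted p of *Fads2* was above 0.05 without floxed control 1 or 2 or without knockout 1 or 3, and with library weights.

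*Fads1* encodes the desaturase that makes arachidonic acid and acts after an elongation step. Its levels were 169.5, 181, 136 and 141 TPM in the floxed livers and 143, 145, 135 and 163 TPM in the knockout livers. As with *Fads2*, floxed controls 1 and 2 were the 2 highest libraries and knockout 3 the lowest. Knockout 4 was the highest knockout for both genes. The log2 fold change of *Fads1* was -0.09 ± 0.11 (SE; adjusted p = 0.918 in limma), and its 95% confidence interval ran from -0.33 to 0.15, so a level between 79.7% and 111% of the control lay within it. In the RefSeq annotation of the assembly GRCm38.p6, *Fads3*, *Fads2* and *Fads1* are consecutive protein-coding genes.

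The other 3 desaturase genes showed wider spreads. *Fads3*, whose product introduces a second double bond into sphingoid bases, stood at 5.53, 3.76, 3.96 and 3.34 TPM in the floxed livers and 4.47, 4.49, 4.62 and 3.14 TPM in the knockout livers. *Fads6*, a family member of less well known substrate, stood at 26.5, 25.7, 19.0 and 18.8 TPM in the floxed livers and 15.75, 23.3, 22.5 and 29.7 TPM in the knockout livers. Knockout 1 had the lowest and knockout 4 the highest *Fads6* level of all libraries, so that the knockouts enclosed the controls. The log2 fold changes were 0.02 ± 0.17 (SE) for *Fads3* and 0.00 ± 0.19 (SE) for *Fads6*, with adjusted p of 0.995 and 1.000 in limma. Their 95% confidence intervals reached from -0.36 to 0.39 and from -0.41 to 0.42.

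*Scd2* encodes a stearoyl-CoA desaturase that makes oleic and palmitoleic acid and is best known in brain and in the liver of newborn mice. It was at 4.84, 4.82, 3.84 and 1.97 TPM in the floxed livers and 2.82, 4.70, 2.62 and 3.95 TPM in the knockout livers. Floxed control 4 was the lowest library, and the control range enclosed all 4 knockouts. The log2 fold change was -0.08 ± 0.24 (SE; 95% confidence interval -0.61 to 0.45; adjusted p = 0.983 in limma), the widest interval among the 10 genes. Without floxed control 4 the log2 fold change was -0.30 (adjusted p = 0.752). Floxed control 4 also had the lowest sums of several marker lists, for example 52.1 TPM over 8 endothelial markers against 68.8 to 145 TPM in the other libraries, and 281 TPM over 9 stellate and fibroblast markers against 475 to 688 TPM. That library also had the highest sum of hepatocyte markers (82103 TPM) and the highest share of TPM in its top 20 genes (33.8%). The part of these in the *Scd2* level was not tested. In bulk liver fewer cells of a type, less RNA per cell and a larger share of other transcripts cannot be told apart. *Scd2* is a close relative of *Scd1*, *Scd3* and *Scd4*, so reads may be shared among them and its value is uncertain.

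Of the elongases, *Elovl5*, which extends the products of FADS2, stood at 194, 141, 159 and 153 TPM in the floxed livers and 158.5, 159.5, 134 and 180.0 TPM in the knockout livers. *Elovl2*, which extends the chains toward docosahexaenoic acid, stood at 125, 96.0, 95.3 and 85.9 TPM in the floxed livers and 96.3, 96.0, 101 and 124 TPM in the knockout livers. In both genes floxed control 1 was the highest library and knockout 4 the next. The log2 fold changes were -0.03 ± 0.12 and 0.06 ± 0.13 (SE), with adjusted p of 0.988 and 0.970 in limma. The 95% confidence intervals corresponded to 81.7% to 117% of the control level for *Elovl5* and 85.6% to 127% for *Elovl2*, on the TPM + 1 scale.

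*Elovl1*, the elongase of sphingolipid acyl chains, stood at 77.2, 66.7, 77.7 and 64.5 TPM in the floxed livers and 73.35, 79.6, 68.0 and 74.5 TPM in the knockout livers. No library lay far from the others, and the coefficient of variation was 9.66% in the controls and 6.43% in the knockouts. Its log2 fold change was 0.05 ± 0.09 (SE; adjusted p = 0.959 in limma), and the 95% confidence interval, -0.16 to 0.25, corresponded to 89.7% to 119% of the control level. In the annotation named above, the end of *Elovl1* overlaps *Cdc20*. *Elovl5*, *Fads1*, *Fads3*, *Scd2* and *Tecr* overlap noncoding genes (microRNA genes for *Fads1* and *Scd2*), and since no source used here gives the strand setting of the read assignment, these values are uncertain to that extent.

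The last 2 genes serve the closing steps of the elongation cycle. *Tecr*, the enoyl reductase, which also takes part in breaking down sphingosine 1-phosphate, stood at 186, 167, 156 and 160.5 TPM in the floxed livers and 170.0, 174, 174 and 173 TPM in the knockout livers. The 4 knockouts lay close together, with an SD of 1.93 TPM and a coefficient of variation of 1.12%, against 13.2 TPM and 7.91% in the controls, and that difference in spread was not tested. The log2 fold change of *Tecr* was 0.05 ± 0.07 (SE; 95% confidence interval -0.12 to 0.21; adjusted p = 0.943 in limma), the narrowest interval of the 10.

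*Hacd3* encodes a 3-hydroxyacyl-CoA dehydratase, the enzyme of the third step. Its levels were 94.9, 85.6, 76.4 and 72.4 TPM in the floxed livers and 50.4, 76.5, 65.7 and 67.2 TPM in the knockout livers. Knockout 1 was the lowest library, and knockout 2 alone reached into the control range, above floxed control 4 and just above floxed control 3. The control mean was 82.3 ± 10 TPM and the knockout mean 64.9 ± 10.8 TPM (SD, n = 4 each), a ratio of 78.9%. The log2 fold change was -0.35 ± 0.13 (SE; 95% confidence interval -0.64 to -0.05; unadjusted p = 0.0264, adjusted p = 0.526 in limma). For *Hacd3* the 2-sided exact permutation p was 0.0857. Without knockout 1 the log2 fold change was -0.23 (unadjusted p = 0.0695, adjusted p = 0.492), and the unadjusted p was also above 0.05 without floxed control 1 or 2.

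A second dehydratase gene, *Hacd2*, which belongs to the list of other pathway genes, had higher values in the knockouts. It stood at 26.3, 33.5, 33.2 and 30.2 TPM in the floxed livers and 51.55, 38.2, 39.5 and 48.3 TPM in the knockout livers. The groups did not overlap, as in 4.74% of all tested genes. Its log2 fold change was 0.51 ± 0.12 (SE; unadjusted p = 0.00205) and it did not pass after adjustment (adjusted p = 0.212 in limma). The ratio of *Hacd2* to *Hacd3*, a comparison chosen after the values were seen and therefore given without a test, was 0.28, 0.39, 0.43 and 0.42 in the controls and 1.02, 0.50, 0.60 and 0.72 in the knockouts. Every knockout ratio lay above every control ratio. This separation follows from the values of the single genes. *Hacd2* was at most 33.5 TPM in the controls and at least 38.2 TPM in the knockouts. *Hacd3* was at least 72.4 TPM in the controls and at most 76.5 TPM in the knockouts. The ratio thus adds no evidence to that of each gene. A ratio within a library does not depend on how libraries are scaled to one another. *Hacd1* and *Hacd4* were lower in level (12.2 and 1.85 TPM in the controls). The 4 dehydratase genes together summed to 127 ± 9.72 TPM in the floxed livers and 124 ± 7.26 TPM in the knockout livers (SD, n = 4 per group), with overlapping ranges. This sum was not among the planned comparisons and was not tested.

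The ratio of *Fads2* to *Fads1* was examined in the same way, also after the values were seen and without a test. It was 2.31, 2.06, 2.07 and 2.23 in the controls and 1.78, 1.98, 1.87 and 1.95 in the knockouts, again without overlap. Each gene alone overlapped between the groups. How many ratios of other gene pairs also separate the groups was not counted, so this separation is a description only. Leaving out any 1 library kept the difference in mean ratio between -0.31 and -0.23 for *Fads2* to *Fads1* and between 0.23 and 0.40 for *Hacd2* to *Hacd3*, and groups that do not overlap fix the direction of such differences.

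**Figure D3:**
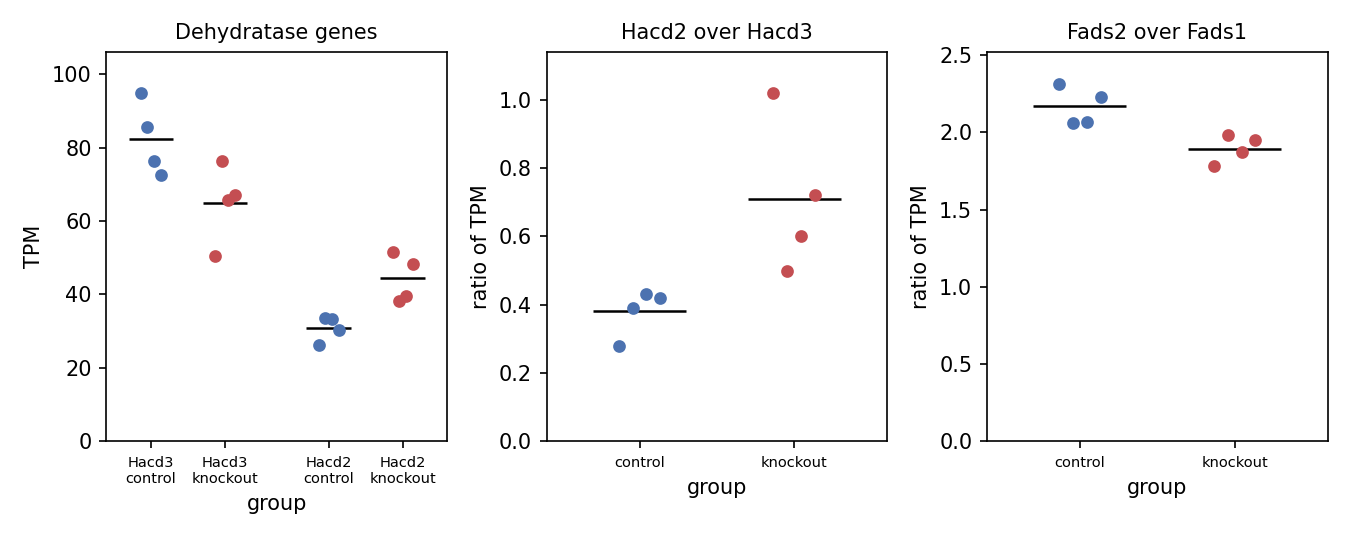
Left, TPM of *Hacd3* and *Hacd2* by group. Middle and right, ratio of TPM within each library for *Hacd2* over *Hacd3* and *Fads2* over *Fads1*. Points are single libraries (4 controls in blue, 4 knockouts in red), lines are group means and all vertical axes start at 0. Both ratios were chosen after the values were seen and were not tested. They separate the groups, upward in the knockouts for *Hacd2* over *Hacd3* (0.50 to 1.02 against 0.28 to 0.43) and downward for *Fads2* over *Fads1*.

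Promoter sequences are shown for the 2 genes with the lowest unadjusted p, *Fads2* and *Hacd3*, and for *Elovl5*, whose product follows FADS2 in the route and whose level was close between the groups. Each runs 5′ to 3′ on the gene's strand, 250 bases before to 50 after the gene's start, from RefSeq on GRCm38.p6. Capitals mark the E-box CACGTG, the letters bound by clock activators and some other basic helix-loop-helix factors, and the CCAAT box, read on either strand (ATTGG on the other).
Fads2, chr19:10101454-10101753, minus strand: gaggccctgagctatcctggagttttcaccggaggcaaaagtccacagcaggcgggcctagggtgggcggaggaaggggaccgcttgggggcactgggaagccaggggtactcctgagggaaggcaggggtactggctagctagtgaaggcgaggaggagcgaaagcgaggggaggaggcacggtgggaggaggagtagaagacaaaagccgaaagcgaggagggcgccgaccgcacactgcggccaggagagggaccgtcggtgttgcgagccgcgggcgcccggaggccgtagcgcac
Hacd3, chr9:65021668-65021967, minus strand: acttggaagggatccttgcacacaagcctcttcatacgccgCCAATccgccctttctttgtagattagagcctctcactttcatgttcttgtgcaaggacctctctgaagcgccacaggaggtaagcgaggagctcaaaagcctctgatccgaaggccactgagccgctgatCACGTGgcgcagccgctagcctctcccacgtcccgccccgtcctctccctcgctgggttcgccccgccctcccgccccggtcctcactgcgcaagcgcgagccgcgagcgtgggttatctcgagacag
Elovl5, chr9:77917115-77917414, plus strand: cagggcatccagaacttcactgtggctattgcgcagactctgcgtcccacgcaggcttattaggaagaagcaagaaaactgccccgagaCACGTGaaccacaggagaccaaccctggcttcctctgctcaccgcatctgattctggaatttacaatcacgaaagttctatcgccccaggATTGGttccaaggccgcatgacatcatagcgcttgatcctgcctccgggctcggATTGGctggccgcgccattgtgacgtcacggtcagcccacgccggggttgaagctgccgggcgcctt
The *Hacd3* window holds 1 E-box, whose first base lies 78 bases before the gene's start, and 1 CCAAT, and the *Elovl5* window holds an E-box 161 bases before the start and 2 CCAAT letters on the other strand. The *Fads2* window holds neither. Of the 10 genes, 8 matched the table of promoters by symbol, and among these *Hacd3* and *Elovl5* had an E-box, as did 7.15% of all 32851 windows. CCAAT was in 5 of the 8 and in 37.4% of all windows. The sterol regulatory letters TCACNCCAC were in 0 of the 8 and in 1.24% of all windows, and none of these 3 motifs overlapped another in the windows shown. A gene was counted where any of its windows held the letters, while the percentages are per window. *Elovl1* and *Elovl2* have more than 1 window, so the gene counts and the percentages differ in unit. These matches describe letters only.

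Variation among libraries crossed the genotypes. Floxed control 1 was the highest of the 8 libraries in 7 of the 10 genes (*Elovl2*, *Elovl5*, *Fads2*, *Fads3*, *Scd2*, *Hacd3* and *Tecr*), floxed control 2 in *Fads1*, knockout 2 in *Elovl1* and knockout 4 in *Fads6*. The lowest library was floxed control 4 in 3 genes, knockout 3 in 3, knockout 1 in 2 and floxed control 3 and knockout 4 in 1 each. The 10 genes summed to 1275, 1145, 1009 and 1016 TPM in floxed controls 1 to 4 and to 968.9, 1051, 959.8 and 1136 TPM in knockouts 1 to 4. Floxed controls 1 and 2 and knockout 4 thus had the highest sums. *Fads2*, at 340.2 and 278 TPM, made up most of the distance between the mean sums of the groups.

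**Figure D4:**
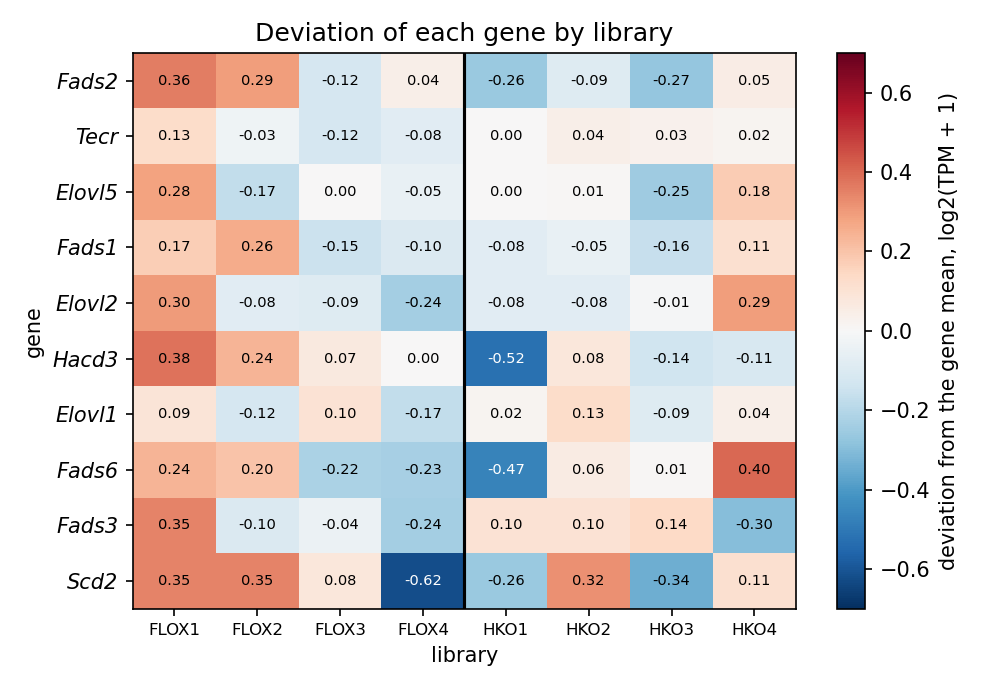
Deviation of each library from the gene's mean over all 8, on the log2(TPM + 1) scale, for the 10 genes (rows) and the libraries (columns; FLOX are floxed controls, HKO knockouts). Red is above and blue below the gene's mean. FLOX1 is above the mean in every row (0.09 to 0.38), FLOX4 is lowest for *Scd2* (-0.62) and HKO1 for *Hacd3* (-0.52) and *Fads6* (-0.47).

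Of 14 other elongation and desaturation genes, 11 were tested, 0 passed, 9 had higher values in the knockout and the median log2 fold change was 0.12. Over all 12710 tested genes, 8211 had higher values and the median was 0.05. At an unadjusted limma p under 0.05, 2 of the 11 were counted, *Hacd2* and *Elovl3*, both with higher values. Among all 12710 tested genes, 8.02% had such a p in either direction, 708 of them with higher values. The groups were free of overlap in 1 of the 11, *Hacd2*, against 4.74% of all tested genes. *Elovl3*, an elongase of saturated and monounsaturated chains with a daily rhythm in male mouse liver, stood at 16.7, 12.1, 14.7 and 12.2 TPM in the floxed livers and 16.8, 16.4, 17.0 and 23.2 TPM in the knockout livers (0.37 ± 0.15 on the log2 scale, SE; limma adjusted p = 0.534). The groups overlapped through floxed control 1. *Scd1*, the main stearoyl-CoA desaturase of adult liver, ranged from 20.1 to 57.7 TPM in the floxed livers and from 22.5 to 80.2 TPM in the knockout livers (adjusted p = 0.956), so its level was above that of *Scd2* in each library, and its spread exceeded the difference between the groups. *Elovl6*, which extends palmitate to stearate, stood at 6.29 ± 0.601 and 6.96 ± 1.72 TPM (SD, n = 4 per group). *Elovl7* was at 1.25 and 1.46 TPM, *Elovl4* was listed at 0 in all 8 libraries, and *Scd3* and *Scd4* never exceeded 0.10 TPM. Partners that elongases or desaturases share did not pass either. The ketoreductase gene *Hsd17b12* had a log2 fold change of 0.06 (95% confidence interval -0.15 to 0.26), which turned negative under median-of-ratios and quantile scaling. The electron carrier genes *Cyb5a* and *Cyb5r3* both had -0.01, with intervals from -0.17 to 0.15 and from -0.19 to 0.17. *Cyb5b* was at 76.8 ± 16.1 and 94.6 ± 17.8 TPM (SD, n = 4 per group; adjusted p = 0.740).

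Of 12 genes that regulate the pathway, 0 passed in limma, 1 had an unadjusted p under 0.05, 7 had higher values and the median log2 fold change was 0.08. Of all 12710 tested genes, 8.02% had such a p, 8211 had higher values and the median was 0.05. *Insig1*, a retention factor of the SREBP pathway and itself a target of it, had the smallest p. It stood at 70.1, 72.3, 48.2 and 48.0 TPM in the floxed livers and 69.5, 89.8, 112 and 113 TPM in the knockout livers, and the groups overlapped through knockout 1 (0.68 ± 0.19 on the log2 scale, SE; limma adjusted p = 0.274). *Srebf1*, which encodes the activator SREBP-1, stood at 25.9 ± 3.10 and 31.3 ± 4.76 TPM (SD, n = 4 per group; adjusted p = 0.685). The log2 fold change was 0.44 ± 0.21 (SE) for *Insig2* and, for *Mlxipl*, which encodes the carbohydrate-responsive activator ChREBP, 0.47 ± 0.25 (SE), with knockout 3 at 84.8 TPM and the other knockouts at 33.4 to 42.8 TPM. Without knockout 3 the value of *Mlxipl* was 0.20, and without floxed control 3 that of *Insig2* was 0.67.

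Of 18 genes that activate, carry or consume long acyl chains, 17 were tested and 0 passed in limma. An unadjusted p under 0.05 was found in 3 (1 with higher and 2 with lower values), and in 3 the groups did not overlap. Of all tested genes, 8.02% had such a p (2.45% with lower values) and 4.74% had groups without overlap. *Mfsd2a*, the carrier of lysophosphatidylcholine bearing docosahexaenoic acid, stood at 57.1, 76.5, 46.3 and 69.6 TPM in the floxed livers and 23.8, 31.2, 38.9 and 20.5 TPM in the knockout livers, or 45.9% of the control mean. Its log2 fold change of -1.11 ± 0.21 (SE) had the smallest p of the list and did not pass (unadjusted p = 0.000273, adjusted p = 0.104 in limma). *Acsl3*, an acyl-CoA synthetase of lipid droplets, had means of 6.99 ± 1.62 and 12.4 ± 3.13 TPM (SD, n = 4 per group; adjusted p = 0.246). *Fabp1*, the liver fatty acid-binding protein gene, overlapped between the groups (log2 fold change -0.25 ± 0.13 SE). The median of the list was -0.03.

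Clock genes were read beside these values. Of 14, 13 were tested, 5 had higher and 8 lower values in the knockout (median log2 fold change -0.40), 1 passed (*Arntl*, higher in the knockout, 4.77 ± 1.44 against 14.3 ± 3.55 TPM; SD, n = 4 per group; adjusted p = 0.049 in limma) and in 6 the groups did not overlap, against 4.74% of all tested genes. At an unadjusted p under 0.05, 4 had higher and 5 lower values, against 8.02% of all tested genes in either direction. *Arntl* no longer passed without any 1 of floxed controls 1, 2 and 4 and the 4 knockouts, with an adjusted p between 0.057 and 0.144, nor with a pseudocount of 0.1 (0.057) or 5 (0.054) or without the filter (0.230). *Npas2* and *Nfil3* had higher values (log2 fold change 1.19 and 1.07) and *Ciart* lower (-1.40), with adjusted p of 0.093, 0.104 and 0.086. The labels give no time of collection. Whether these clock gene values have a part in those of *Hacd3*, *Fads2*, *Elovl3* or *Mfsd2a* was not tested.

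Which genes had the most similar profile over the 8 libraries was read from the root mean square difference of log2 values, after each profile was centred and divided by its SD, among tested genes of at least 5 TPM on average. For *Fads2* these were *Slc5a6* (0.28), *Tsr1* (0.33) and *Clmn* (0.35). *Tomm20* (0.20), *Ing1* (0.32) and *Ube2e1* (0.37) were closest to *Fads1*. For *Elovl5* they were *C6* (0.22), *Dnttip2* (0.41) and *Phospho1* (0.42). No other member or pathway gene was among them. With 8 libraries and many genes, small differences of this kind occur readily, and the values describe these libraries.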

How the data were processed

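Liver RNA was sequenced from stranded total RNA libraries. Expression came from a single TPM table deposited by the authors, with 55416 mouse gene identifiers and 8 libraries. RSEM 1.3.3 and GRCh38.p13 appear in the submitters' processing notes, and the latter is a human assembly although the identifiers are mouse. No source used here gives the aligner, the annotation or any filter. TPM values are relative within a library, so abundant transcripts can shift the others. Symbols were found for 52083 identifiers. The 12710 genes that reached 1 TPM in 4 or more libraries were compared as log2(TPM + 1) in limma 3.58.1 with R 4.3.3 (lmFit, then eBayes with trend), and p-values were adjusted over all of them by Benjamini-Hochberg. The procedure was tested on simulated data. Single genes were also tested by exact permutation.

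The members and lists were chosen with earlier results of these data known. Named genes are all members, *Smpd3*, every measured gene of the other elongation and desaturation list, and up to 4 genes of smallest p from each further list, with *Plin1*, *Lep* and *Cdc20* added after the values were seen. Of these, 1 gene is not reported here. For *Elovl5*, *Fads1* and *Fads2* the 3 genes of most similar profile are named. Promoters and gene positions are RefSeq's on GRCm38.p6. The comparison was repeated with pseudocounts of 0.1 and 5, without the filter, with a mean of 5 TPM as the filter, with median-of-ratios scaling, after rescaling that left out mitochondrially encoded transcripts and the top 20 genes, with quantile normalization, with robust eBayes, with weights per library, with replicate numbers as a block, and with 1 library left out at a time.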

Additional observations from a re-analysis of the deposited data

Results flagged for a closer look

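In groups of 4, a library was marked when its gap to the nearest other library took up most of the group's range (Dixon's test at 95%), which chance gives in about 1 of 20 groups; 72 groups were examined and 6 were marked. Among the elongases and desaturases these were *Elovl2* in the knockouts, where knockout 4 was highest at 124.24 TPM, and *Fads3* in the knockouts, where knockout 4 was lowest at 3.14 TPM. *Elovl3* was highest in knockout 4, at 23.22 TPM. Among the clock genes, *Arntl* (19.55 TPM) and *Nfil3* (36.99 TPM) were also highest in knockout 4, and *Ciart* was highest in knockout 2 at 0.56 TPM. Knockout 4 was thus the library marked in 5 of the 6 groups. All groups draw on the same 8 libraries, so the marks are not independent. The rate of 1 in 20 does not apply to their count in a single library.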

How the results depend on the processing

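None of the 10 genes passed the adjusted threshold under any of the 18 alternatives that could be fitted for it (*Fads3* and *Scd2* did not reach a mean of 5 TPM and were fitted in 17). *Fads2* and *Hacd3* kept lower values in all 18, with log2 fold changes from -0.37 to -0.21 and from -0.43 to -0.23 and adjusted p from 0.321 to 0.908 and from 0.179 to 0.836; their unadjusted p was under 0.05 in 13 and 15. *Fads1* also kept its sign. The sign of the other 7 genes, all close to 0, depended on the setting. With median-of-ratios scaling the log2 fold changes of *Elovl1*, *Elovl2*, *Fads3*, *Fads6*, *Tecr* and *Hsd17b12* turned to -0.01, -0.00023, -0.03, -0.06, -0.01 and -0.0022. With quantile normalization they turned to -0.02, -0.01, -0.03, -0.06, -0.01 and -0.02, and that of *Cyb5a* to 0.01. Rescaling without mitochondrially encoded and the most abundant genes gave -0.0035 for *Fads3* and -0.02 for *Fads6*, and library weights gave -0.06 for *Fads3*. These scalings lowered the median of all genes from 0.05 to 0.00 (median of ratios, quantile) and 0.03 (rescaling). Leaving out 1 library in turn gave ranges that crossed 0 for *Elovl2* (-0.03 to 0.17), *Elovl5* (-0.10 to 0.06), *Fads3* (-0.06 to 0.14), *Fads6* (-0.13 to 0.16), *Scd2* (-0.30 to 0.02), *Scd1* (-0.13 to 0.49), *Cyb5a* (-0.05 to 0.03) and *Cyb5r3* (-0.06 to 0.02). The cause was not tested.

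Over all tested genes, 6 were higher and 7 lower. The counts were 3 and 3 with a pseudocount of 5, 4 and 4 with a pseudocount of 0.1, 0 and 0 without a filter (where 26719 genes were tested, 1539 of them at an unadjusted p under 0.05), 10 and 15 with the rescaling, 10 and 9 with quantile normalization, and 10 and 10 with library weights. Leaving out 1 library gave 0 to 9 higher and 0 to 7 lower, with 0 in both directions without floxed control 1 (960 at an unadjusted p under 0.05) or knockout 3 (780). With the replicate number as a block, 0 genes were higher and 0 lower (743 at an unadjusted p under 0.05), and *Smpd3* and *Arntl* had adjusted p of 0.082 and 0.139, above the threshold. The labels do not say whether equal numbers pair the samples. Correlations of deviations from the group means were -0.15, 0.03, -0.15 and -0.20 between same-numbered libraries. Between differently numbered libraries they ran from -0.10 to 0.19. Such correlations cannot show whether the samples were paired. TPM keeps no depth, and 4 libraries per group left 95% confidence intervals as wide as -0.61 to 0.45 among the 10 genes, for *Scd2*.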
